A study of Homo sapiens with 24 samples.

Results

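BJ-hTERT fibroblasts in which doxycycline had switched on the YWHAE-NUTM2 fusion gene were compared at 72 h with the same induced line at 24 h. The 6 arrays, 3 BJ-hTERT DOX 72 h and 3 BJ-hTERT DOX 24 h, were taken by their labels from a series of 24 Affymetrix Human Gene 2.1 ST arrays, which holds 8 groups of 3 from 2 cell lines. BJ-hTERT is a line of human foreskin fibroblasts immortalised with telomerase. All groups used here, the mock ones included, carry the inducible construct for the HA-tagged fusion, so no array comes from cells without it. The other groups set beside the induced fibroblasts are BJ-hTERT MOCK 72 h and BJ-hTERT MOCK 24 h, which received the water vehicle in place of doxycycline, and HEK293 DOX 72 h and HEK293 DOX 24 h, a line from embryonic kidney. Times count from the addition of drug or vehicle, 24 h after seeding per the labels, and whether the 72 h cells were denser or had used more of their medium was not measured. The labels do not state that a group's arrays are separate cultures, nor whether the line is 1 clone, and the p-values below cover the array-to-array spread alone, which may be technical. In bulk RNA, fewer cells of a type and less RNA per cell cannot be told apart.

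YWHAE encodes 14-3-3 epsilon, an adaptor protein that binds phosphorylated partners in many signalling routes. Its fusion to a NUTM2 gene is known from clear cell sarcoma of the kidney and from endometrial stromal sarcoma. Fibroblasts in culture secrete collagens, laminins and proteases that build and cut the matrix around them, hold on to it through integrins, and change this programme as a dish fills and as they leave the cell cycle. Mock cells of the same 2 times show what time in culture did without induction.

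Gene values below are log2 levels, each the mean of a gene's probe sets on the scale deposited by the authors, and changes are differences of log2 means ± the standard error of the limma fit, with n = 3 arrays a group. A gene is called, and said to have risen or fallen, at an adjusted p under 0.05 over the 17329 genes tested. At an unadjusted p under 0.05, 1029 of the 17329 genes were higher and 1169 lower at 72 h in DOX cells. In MOCK cells these counts were 1402 and 1114. Correlations over genes were 0.974 to 0.977 among the DOX 72 h arrays and 0.976 to 0.979 among the DOX 24 h arrays, against 0.971 to 0.975 between the times. The 14 fibroblast markers all lay above the detection filter of log2 2.83. Their mean level per array was 8.44 to 8.55 at 72 h and 8.19 to 8.27 at 24 h in DOX cells, with COL3A1 the 1 marker called over time. Immune markers were at or above the filter in 0 of 4 genes on the array, endothelial in 2 of 5, epithelial in 5 of 9 and HEK293-type in 3 of 6, and limma called 0 markers of these cell types over time in DOX cells.

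Induced NUTM2 signal, which stands in for the fusion transcript, was present at both times. With 0 probe sets carrying the YWHAE symbol, the joined transcript itself was not read. Of the tested NUTM2 probe sets, 13 were higher in DOX than in MOCK cells at both times and were chosen by those calls, so their levels are a description. They averaged 7.995, 8.01 and 8.44 on the DOX 72 h arrays and 8.55, 8.50 and 8.91 on the DOX 24 h arrays. MOCK arrays stood at 4.83, 4.76 and 5.29 at 72 h and at 4.64, 4.97 and 4.93 at 24 h. The lowest DOX array was thus far above the highest MOCK array at either time, and the third replicate was the highest DOX array at both. Between the times the median change of the 13 probe sets in DOX cells was -0.50, ranging from -0.77 to -0.18. In the limma test on single probe sets, 0 of 33 NUTM2 probe sets were called over time, with 2 higher and 0 lower at an unadjusted p under 0.05, where 0.0136% of all 279609 probe sets were called. NUTM2D, a NUTM2 gene whose own value comes from 3 probe sets, stood at 5.66, 5.82 and 5.08 at 72 h and at 4.00, 4.69 and 4.32 at 24 h in DOX cells. That gene rose by 1.18 ± 0.23 (adjusted p = 0.014), though its paralogs are near-identical and the array cannot always tell their transcripts apart. Its 3 probe sets changed by 2.25, 0.50 and 0.79 in DOX cells and by -0.41, 0.03 and -0.09 in MOCK cells. At 24 h their DOX minus MOCK differences were -1.36, -0.03 and -1.01, so they were not among the 13 induced probe sets.

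From 24 to 72 h, induced fibroblasts gained transcripts of some fibrillar collagens (COL5A1, COL11A1), of the collagen receptor subunit ITGA11 and of the laminin chain LAMA2. They lost transcripts of the laminin chain LAMA1, the collagenase MMP1, the stromelysin MMP3, versican and 2 of 35 DNA replication genes, POLA1 and GINS4. The median change of that replication list was 0.00, and its called falls numbered 0 to 3 over 17 alternatives. MOCK cells also had ITGA11 higher and LAMA1, MMP3 and versican lower at 72 h. COL11A1, LAMA2 and MMP1 changed in the same direction in MOCK cells but missed the threshold there. None of the genes listed above was called as differing in its change between DOX and MOCK cells. Limma called 143 genes, 0.825% of those tested, of which 84 were higher (0.485%) and 59 lower (0.34%) at 72 h. At least 2-fold changes were found in 24 of the rises and 10 of the falls. The median absolute change of a called gene was 0.77 log2 and the smallest was 0.43. The arrays of the 2 times did not overlap in any of the 143 genes, against 17.7% of all genes (19.4% for MOCK cells), a separation that the calls largely entail. The count of 143 changed with the arrays that set the spread. It was 52 when the 12 BJ-hTERT arrays alone were fitted, 4 with the 6 DOX arrays alone, and 57 when probe sets were summarised by their median. Leaving out 1 DOX array gave 60 to 108 calls. The excess of rises was absent with an intensity trend and robust prior (122 higher and 122 lower), without DOX 72 h replicate 1 (44 and 48) and without replicate 2 (29 and 31).

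**Figure D1:**
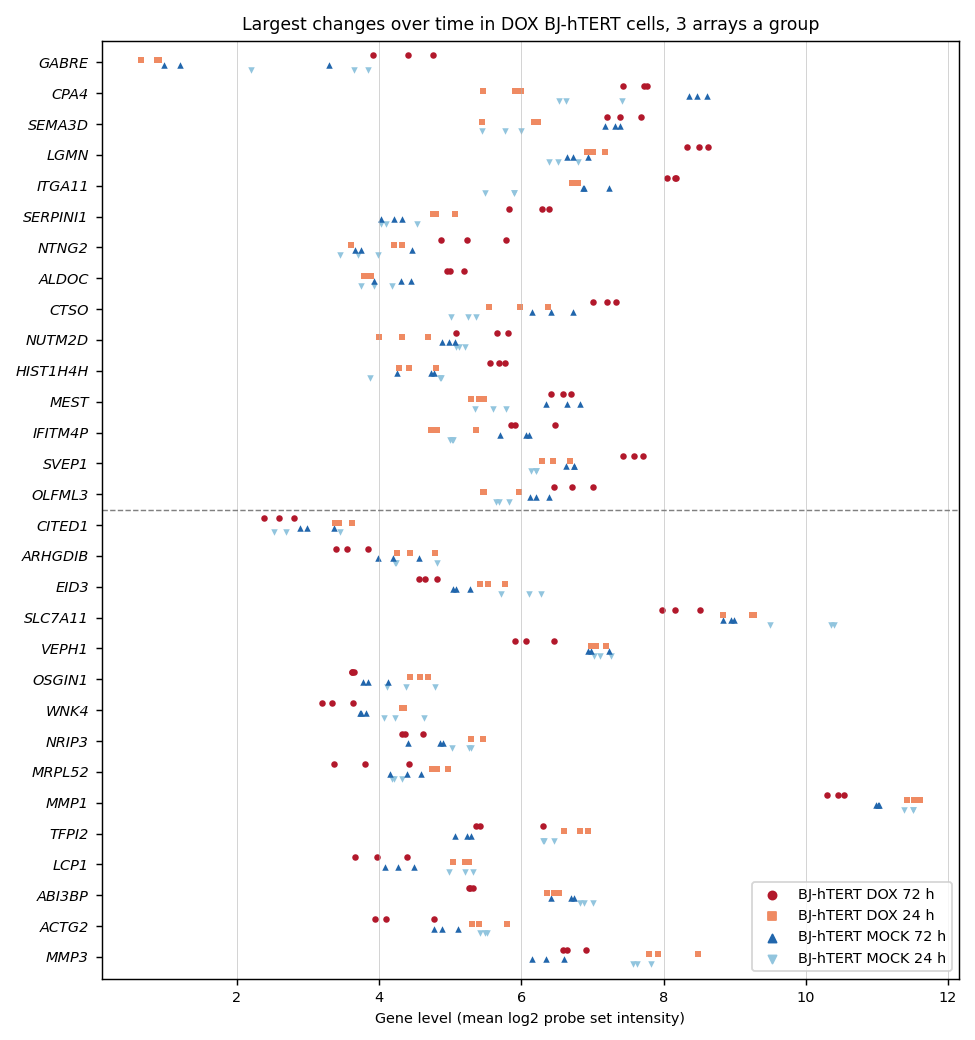
The 15 largest called rises (above the dashed line) and the 15 largest called falls over time in DOX BJ-hTERT cells that the naming rule picked, with the gene's mean log2 probe set intensity on the horizontal axis and 1 point for each of 3 arrays a group. DOX 72 h points lie clear of DOX 24 h points in every row, while MOCK 72 h and MOCK 24 h points are apart for CPA4, SEMA3D, ITGA11 and MMP3 and overlap for LGMN, SERPINI1 and VEPH1.

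The gene CPA4, for a secreted carboxypeptidase that trims peptides, had the largest rise among genes above the filter at both times. Its level was 7.73, 7.43 and 7.77 on the DOX 72 h arrays and 5.46, 5.91 and 5.99 on the DOX 24 h arrays. The 72 h arrays were all more than 1 log2 unit above the 24 h arrays, a 3.62-fold rise (1.86 ± 0.23, adjusted p = 0.00048). In MOCK cells CPA4 also rose, by 1.62 ± 0.23, to 8.35, 8.61 and 8.46 at 72 h, against 6.52, 6.63 and 7.42 at 24 h. The gene is shown with its promoter because it was 1 of only 2 called rises whose window holds TGANTCA, where N is any base. AP-1 dimers bind the forms with G or C at N, and both CPA4 matches have these letters. Printed are the 250 bases before the RefSeq start in GRCh38.p14, at chr7:130292911-130293160 on the plus strand. The matches, 48 and 15 bases before the start, are in capitals.
CPA4: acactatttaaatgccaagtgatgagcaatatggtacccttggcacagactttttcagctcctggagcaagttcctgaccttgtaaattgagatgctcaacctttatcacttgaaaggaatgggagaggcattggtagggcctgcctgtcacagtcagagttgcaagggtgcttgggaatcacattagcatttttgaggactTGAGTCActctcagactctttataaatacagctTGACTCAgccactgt

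LGMN, encoding the lysosomal asparaginyl protease legumain, rose with a small spread. It read 8.33, 8.50 and 8.62 at 72 h and 6.93, 7.01 and 7.18 at 24 h in DOX cells, a rise of 1.44 ± 0.15 (2.72-fold, adjusted p = 8.3e-05). MOCK cells had 6.94, 6.73 and 6.64 at 72 h and 6.51, 6.79 and 6.39 at 24 h, with overlapping arrays. The difference of the 2 time courses was 1.24 ± 0.22 and missed the threshold (adjusted p = 0.10). SERPINI1, for the serine protease inhibitor neuroserpin, gave 5.83, 6.39 and 6.29 at 72 h and 4.76, 5.07 and 4.80 at 24 h in DOX cells. Its rise of 1.29 ± 0.20 (adjusted p = 0.0028) stood beside a MOCK change of -0.03 ± 0.20, and the difference of 1.32 ± 0.28 missed the threshold too (adjusted p = 0.12). EPB41L5, a FERM domain adaptor, followed with 0.99 ± 0.16 in DOX and -0.12 in MOCK cells (difference 1.11 ± 0.22, adjusted p = 0.10).

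Other large rises belonged to varied roles. ALDOC, the aldolase C isozyme of glycolysis, had 5.19, 5.00 and 4.95 at 72 h and 3.88, 3.79 and 3.81 at 24 h in DOX cells and rose by 1.22 ± 0.17. NTNG2, a membrane-anchored netrin, rose by 1.25 ± 0.27, though its call was lost in 8 of 17 alternatives. The lysosomal cysteine protease gene CTSO rose by 1.22 ± 0.24 in DOX cells and by 1.22 in MOCK cells. MEST, an imprinted gene expressed from the paternal copy, rose by 1.17 ± 0.22, and the matrix gene SVEP1 by 1.10 ± 0.17. MXRA5 and VIT, both for secreted matrix proteins, rose by 0.99 ± 0.17 and 0.90 ± 0.14 in DOX cells, and by 1.03 and 1.34 in MOCK cells. IFITM4P, a pseudogene of the interferon-induced transmembrane family, rose by 1.11 ± 0.18 and OLFML3, for a secreted olfactomedin-like protein, by 1.10 ± 0.17. GABRE, for a GABA-A receptor subunit, gave the largest number, 3.55 ± 0.72. It rests on 1 probe set whose DOX 24 h mean of 0.81 is below the filter, so the size is uncertain; MOCK arrays spread from 0.98 to 3.30 at 72 h and from 2.20 to 3.84 at 24 h.

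Among the falls, ABI3BP, an extracellular matrix protein gene with 65 probe sets, had small spreads. DOX arrays gave 5.28, 5.32 and 5.26 at 72 h and 6.37, 6.53 and 6.46 at 24 h, so both triplets were tight and far apart. It fell by 1.17 ± 0.14 on the log2 scale (adjusted p = 0.00035), beside a change of -0.29 in MOCK cells. LCP1, the actin bundler L-plastin, had 3.67, 3.96 and 4.40 at 72 h and 5.26, 5.04 and 5.21 at 24 h and fell by 1.16 ± 0.16, and ACTG2, smooth muscle gamma actin, fell by 1.23 ± 0.22. The MOCK changes of these genes were -0.90 and -0.55. SLC7A11, the cystine importer that feeds glutathione synthesis, fell by 0.90 ± 0.21, against a fall of 1.16 in MOCK cells. The transcriptional co-regulator gene CITED1 fell by 0.88 ± 0.21 to a 72 h mean of 2.59, below the filter, and its call was lost in 13 of 17 alternatives. MRPL52, of the mitochondrial ribosome, fell by 0.98 ± 0.19. LINC00707, a non-coding RNA gene passed over by the naming rule and chosen after its values were seen, had 3.75, 3.56 and 3.30 at 72 h and 6.44, 6.32 and 4.71 at 24 h, and its fall of 2.28 ± 0.42 was the largest of the 59.

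TFPI2, for a secreted Kunitz-type inhibitor of serine proteases, read 5.42, 5.36 and 6.30 at 72 h and 6.83, 6.59 and 6.93 at 24 h in DOX cells. It fell by 1.09 ± 0.20 and in MOCK cells by 1.17. A TGANTCA match, TGAATCA with A at N, stands 87 bases before its RefSeq start. The window is chr7:93890754-93891003, printed 5′ to 3′ on the minus strand, with the match in capitals.
TFPI2: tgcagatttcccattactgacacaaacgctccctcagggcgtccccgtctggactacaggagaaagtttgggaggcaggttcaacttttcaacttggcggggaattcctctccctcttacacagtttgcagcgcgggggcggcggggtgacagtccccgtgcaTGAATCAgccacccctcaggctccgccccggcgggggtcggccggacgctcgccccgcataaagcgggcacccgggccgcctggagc
Of the 59 falls 44 had a promoter in the RefSeq table and 8 of those, 18.2%, held TGANTCA within 250 bases. For the rises it was 2 of 66, or 3.03% (CPA4 and the chloride transporter gene CLCN5, the second chosen after its values were seen), and for all genes tested 857 of 12826, or 6.68% (8.06% of all 27305 promoters in the table). The pattern was searched on both strands with any base at N, so the counts include forms other than the AP-1 site. The 8 were ARHGDIB, TFPI2, OSGIN1 and VEPH1 of the genes named by rule and ELTD1, LYPD1, DTNA and ZNF438, chosen after their values were seen. These are counts of letters in a window; binding was not measured.

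Matrix genes stood among the called rises over time in both DOX and MOCK cells. Of 35 tested genes for fibrillar collagens and matrix proteins, 7 rose and 1 fell in DOX cells (median 0.27, all genes -0.02), and 8 rose and 1 fell in MOCK cells (median 0.32, all genes 0.01), where limma called 1.85% of genes, 1.16% higher and 0.692% lower. The 7 DOX rises were COL5A1, COL11A1, COL12A1 and SPARC, and, chosen after their values were seen, COL3A1, LOXL1 and FBN1. Across 17 alternatives the rises numbered 0 to 12 in DOX and 0 to 11 in MOCK cells. COL5A1, which nucleates collagen fibrils, had 8.01, 7.99 and 7.83 at 72 h and 7.10, 6.68 and 6.93 at 24 h in DOX cells (1.03 ± 0.17). COL11A1, a minor fibrillar collagen, had 7.64, 7.83 and 7.95 at 72 h and 6.67, 6.77 and 6.90 at 24 h (1.03 ± 0.16). Its MOCK change of 0.42 missed the threshold (adjusted p = 0.21). In DOX cells the times did not overlap for either gene.

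Other matrix genes had different sizes of change in DOX and MOCK cells, none called as differing. COL3A1, type III collagen, rose by 0.65 ± 0.14 in DOX cells and by 1.32 in MOCK cells (difference -0.67 ± 0.19, adjusted p = 0.27). COL1A1, the main chain of type I collagen, chosen after its values were seen, had a mean of 11.18 at 72 h and 10.71 at 24 h in DOX cells (0.47 ± 0.13, adjusted p = 0.10), and rose by 0.57 in MOCK cells. LOXL1, an elastin and collagen crosslinking enzyme, rose by 0.68 ± 0.15 in DOX and by 1.10 in MOCK cells, while FBN1, the microfibril protein fibrillin, rose by 0.62 ± 0.14 in DOX cells beside 0.18 in MOCK cells. The FBN1 and LOXL1 calls were lost in 13 and 9 of 17 alternatives. VCAN, the hyaluronan-binding proteoglycan versican, was lower at 72 h in the DOX arrays, with 6.21, 6.35 and 6.12 at 72 h and 6.95, 6.97 and 7.19 at 24 h. It fell by 0.81 ± 0.11 (adjusted p = 0.0011) and in MOCK cells by 0.46.

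The collagen receptor subunit ITGA11 was the called member among 16 tested integrin genes. It stood at 8.05, 8.15 and 8.17 at 72 h and at 6.76, 6.80 and 6.72 at 24 h in DOX cells, without overlap (1.37 ± 0.15, adjusted p = 8.3e-05). MOCK cells had 6.88, 6.86 and 7.23 at 72 h and 5.89, 5.48 and 5.89 at 24 h, a rise of 1.24. The difference between the courses was 0.13 ± 0.21 (adjusted p = 0.91). The median of the integrin list was -0.01 in DOX and 0.18 in MOCK cells, and 3 integrin genes rose in MOCK cells.

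Laminins split by chain. Of 18 basement membrane genes 3 rose and 1 fell in DOX cells (median 0.26), and 0 rose and 2 fell in MOCK cells (median 0.20). The DOX rises numbered 0 to 3 over 17 alternatives, and leaving out any 1 DOX array left 1. LAMA2, the laminin alpha 2 chain of muscle and mesenchyme, had 7.53, 7.54 and 7.42 at 72 h and 6.90, 6.66 and 6.81 at 24 h in DOX cells (0.71 ± 0.13). LAMA1, the alpha 1 chain of early epithelial basement membranes, had 5.97, 5.78 and 6.22 at 72 h and 6.85, 6.92 and 6.59 at 24 h, and fell by 0.80 ± 0.12 (adjusted p = 0.0024). LAMB2 rose by 0.51 ± 0.11 and the laminin linker gene NID2 by 0.48 ± 0.10, calls that were lost in 11 and 10 of 17 alternatives. In MOCK cells LAMA1 fell by 0.58 and LAMA2, with 0.48, missed the threshold (adjusted p = 0.056).

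Both called falls among matrix proteases were MMPs. Among 27 tested MMP, ADAMTS and TIMP genes 1 rose and 2 fell in DOX cells (median 0.02), against 2 and 1 in MOCK cells. MMP1, interstitial collagenase, stood at 10.45, 10.53 and 10.30 at 72 h and 11.61, 11.52 and 11.42 at 24 h in DOX cells. It fell by 1.09 ± 0.17 (adjusted p = 0.0025). In MOCK cells its change of -0.45 missed the threshold (adjusted p = 0.19), and the difference of -0.64 ± 0.23 missed it too (adjusted p = 0.43). MMP3, stromelysin 1, had 6.65, 6.91 and 6.58 at 72 h and 8.49, 7.93 and 7.79 at 24 h in DOX cells and fell by 1.35 ± 0.22, as it did in MOCK cells by 1.31. The aggrecan-cutting protease gene ADAMTS5 rose by 1.07 ± 0.17 in DOX cells, beside a MOCK change of 0.62 that missed the threshold (adjusted p = 0.074). MMP15, a membrane-type protease gene not in the list and chosen after its values were seen, rose by 0.94 ± 0.16 in DOX cells.

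Guidance genes were next. Of 35 migration and guidance genes 3 rose and 0 fell in DOX cells (median 0.04), and 2 rose in MOCK cells (median 0.23). At an unadjusted p under 0.05, 8 were higher and 4 lower in DOX cells, and 16 higher and 2 lower in MOCK cells. The rises numbered 0 to 3 in both arms over 17 alternatives. SEMA3D, a secreted class 3 semaphorin, had 7.38, 7.68 and 7.20 at 72 h and 6.23, 6.18 and 5.45 at 24 h in DOX cells, a rise of 1.47 ± 0.20 beside 1.56 in MOCK cells. The membrane semaphorin gene SEMA5A rose by 0.83 ± 0.15 and NTN4, a netrin of basement membranes, by 0.69 ± 0.14. HAS2, which makes hyaluronan, gave 5.11, 5.46 and 3.86 at 72 h and 6.04, 6.19 and 5.69 at 24 h in DOX cells, a change of -1.16 ± 0.31 that missed the threshold (adjusted p = 0.079).

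**Figure D2:**
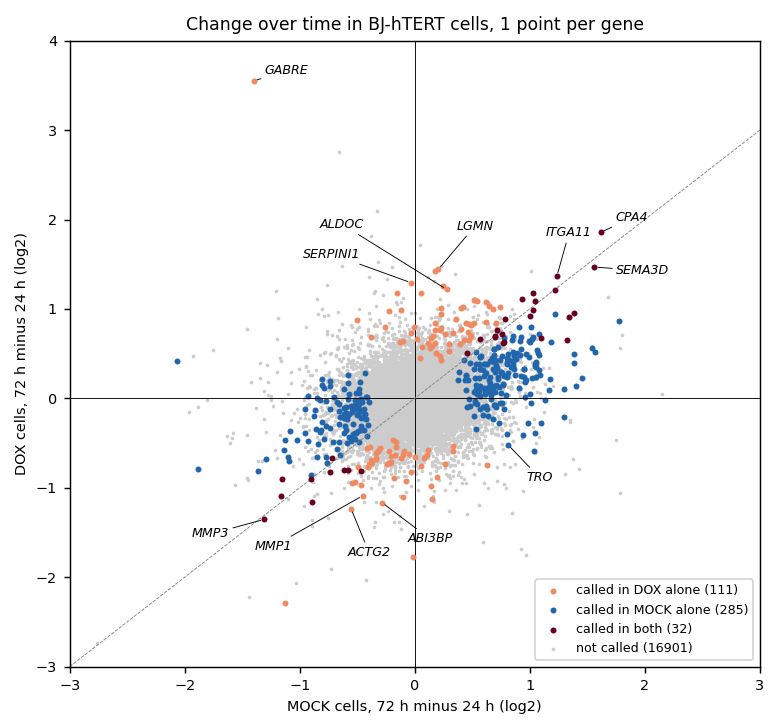
Each point is 1 of 17329 genes, placed by its log2 change from 24 to 72 h in MOCK cells (horizontal) and in DOX cells (vertical), with called genes coloured and the dashed line marking equal change. Genes called in both (32) lie in the upper right and lower left quadrants only, and TRO is the 1 gene whose 2 changes differ beyond the threshold.

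Setting DOX beside MOCK cells asked which changes over time also occurred without induction. These time comparisons share no arrays. Limma called 321 genes over time in MOCK cells, 201 higher and 120 lower, and 143 in DOX cells. The 32 genes called in both, 22 rises and 10 falls, moved the same way, and they are 22.4% of the DOX calls and 9.97% of the MOCK calls. Among the 84 DOX rises the MOCK change was above 0 in 72, with a median of 0.41 beside 0.81 in DOX cells. For the 59 falls it was below 0 in 48, with a median of -0.24 beside -0.73. Over all 17329 genes 9046 had a MOCK change above 0, and the changes correlated across genes at r = 0.202, a description in which genes are not independent. Genes called on 1 side only were not shown to differ between the sides.

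The test of the difference itself called 1 gene, 0.00577% of those tested, with 1535 at an unadjusted p under 0.05 (637 higher and 898 lower). TRO, encoding the adhesion protein trophinin, had 3.78, 3.49 and 3.80 at 72 h and 4.01, 4.25 and 4.35 at 24 h in DOX cells. In MOCK cells it had 4.07, 4.31 and 4.55 at 72 h and 3.40, 3.66 and 3.43 at 24 h. DOX arrays thus lay below all MOCK arrays at 72 h and above them at 24 h. The change was -0.52 ± 0.15 in DOX cells, which missed the threshold (adjusted p = 0.10), and TRO rose by 0.81 in MOCK cells (adjusted p = 0.0065). The difference was -1.33 ± 0.21 (adjusted p = 0.045), and its call was lost in 14 of 22 alternatives.

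Sterol and fatty acid synthesis genes had medians above 0 in both arms, with few calls in DOX cells. Of 23 tested members 3 rose and 0 fell in DOX cells (median 0.40), with 15 higher at an unadjusted p under 0.05. In MOCK cells 15 rose and 0 fell (median 0.70). Across 17 alternatives the rises numbered 0 to 7 in DOX and 0 to 16 in MOCK cells, and DOX had 0 without DOX 72 h replicate 1, without replicate 2 and with the 12 BJ-hTERT arrays alone. The difference between the courses had a median of -0.22, with 0 members called and 6 lower at an unadjusted p under 0.05. IDI1, an isomerase of the mevalonate route, had 6.22, 5.93 and 5.87 at 72 h and 5.07, 5.41 and 5.49 at 24 h in DOX cells (0.68 ± 0.15). MSMO1, a sterol methyl oxidase, rose by 0.63 ± 0.15, and ACACA, the first committed enzyme of fatty acid synthesis, by 0.51 ± 0.10. The MSMO1 call was lost in 11 of 17 alternatives.

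INSIG1, the membrane brake on sterol synthesis that is itself sterol-regulated, had 7.22, 6.88 and 6.27 at 72 h and 6.36, 5.63 and 5.79 at 24 h in DOX cells. The third 72 h array fell below the first 24 h array, and the change of 0.87 ± 0.21 just missed the threshold (adjusted p = 0.051). In MOCK cells INSIG1 rose by 1.77. SREBF2, encoding the master transcription factor of the route, changed by 0.80 ± 0.19 (adjusted p = 0.051) and rose by 1.01 in MOCK cells. The MSMO1 promoter is printed as an example of the CCAAT box, the letters bound by NF-Y, which cooperates with that factor at sterol genes. It spans chr4:165327419-165327668 on the plus strand, with 4 matches on either strand (ATTGG is the reverse complement) at 185, 139, 76 and 34 bases before the start.
MSMO1: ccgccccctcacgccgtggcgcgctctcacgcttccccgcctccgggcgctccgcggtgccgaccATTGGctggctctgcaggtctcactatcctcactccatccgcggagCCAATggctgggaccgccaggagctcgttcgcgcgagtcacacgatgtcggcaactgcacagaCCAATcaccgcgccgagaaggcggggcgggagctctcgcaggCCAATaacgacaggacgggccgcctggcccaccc
CCAAT on either strand lay in the 250 bases of 16 of 20 listed sterol genes with a promoter (80.0%), of 22 of 66 rises (33.3%), of 21 of 44 falls (47.7%) of 40.4% of tested genes and of 37.0% of all promoters in the table.

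Interferon response genes were called in MOCK cells alone, though the difference between the courses was not called for any member. Limma called 0 of 26 members in DOX cells, with 8 higher and 0 lower at an unadjusted p under 0.05 (median 0.27), and 8 rose in MOCK cells (median 0.67). The median difference was -0.28, with 0 members called and 7 lower at an unadjusted p under 0.05. Mean list levels were 5.00, 5.28 and 4.89 at 72 h and 4.70, 4.85 and 4.79 at 24 h in DOX cells. MOCK arrays gave 5.38, 5.40 and 4.78 at 72 h and 4.66, 4.50 and 4.61 at 24 h. The third MOCK 72 h array thus stood well below the other two, and the MOCK count ranged from 0 to 10 over 17 alternatives.

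**Figure D3:**
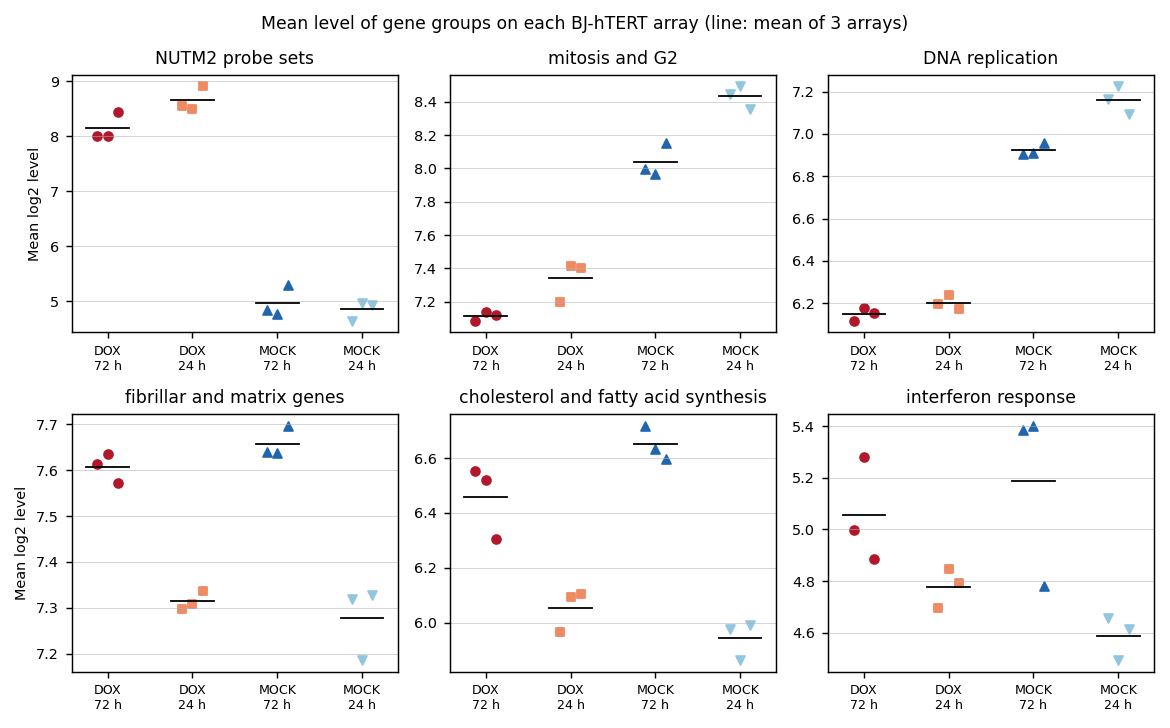
Mean log2 level of the 13 induced NUTM2 probe sets and of 5 gene lists on each BJ-hTERT array, with 1 point per array and a line at the mean of 3, each panel on its own axis that does not start at 0. DOX arrays lie below MOCK arrays for mitosis and DNA replication genes at both times, and 72 h lies above 24 h for matrix and sterol genes in both arms.

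Mean levels of the cell cycle lists were lower in DOX than in MOCK cells at both times. Mean levels of 35 DNA replication genes were 6.12, 6.18 and 6.15 at 72 h and 6.19, 6.24 and 6.17 at 24 h in DOX cells, and the times overlapped. MOCK arrays read 6.90, 6.91 and 6.96 at 72 h and 7.17, 7.23 and 7.10 at 24 h. The list's median change was 0.00 in DOX and -0.25 in MOCK cells. POLA1, the catalytic subunit of the polymerase that primes replication, had 6.13, 6.03 and 5.83 at 72 h and 6.62, 6.71 and 6.69 at 24 h in DOX cells and fell by 0.68 ± 0.11 (adjusted p = 0.0031). GINS4, of the replicative helicase, fell by 0.61 ± 0.14, a call lost in 14 of 17 alternatives. CCNE1, cyclin E1, which drives entry into S phase, changed by 0.61 ± 0.15 (adjusted p = 0.052).

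Of 34 mitosis and G2 genes limma called 0 in DOX cells, with 0 higher and 15 lower at an unadjusted p under 0.05 (median -0.22), and 10 fell in MOCK cells (median -0.41). Mean list levels were 7.09, 7.13 and 7.12 at 72 h and 7.20, 7.42 and 7.40 at 24 h in DOX cells, without overlap. MOCK arrays gave 7.99, 7.97 and 8.15 at 72 h and 8.45, 8.49 and 8.36 at 24 h. In DOX cells 2 of the 34 members had a change above 0. Settings moved these counts to between 0 and 4 falls in DOX and between 0 and 15 in MOCK cells. PLK1, a kinase of mitotic entry, had 8.53, 8.54 and 8.57 at 72 h and 8.87, 8.91 and 8.92 at 24 h in DOX cells, a clear gap of -0.35 ± 0.09 that missed the threshold (adjusted p = 0.074). In MOCK cells it fell by 0.47. Outside the list, and chosen after their values were seen, the kinetochore gene SKA3 fell by 0.76 ± 0.15, IQGAP3 by 0.73 ± 0.13 and PRR11 by 0.56 ± 0.13 in DOX cells. The PRR11 call was lost in 9 of 17 alternatives. Replication-dependent histone genes held 1 riser among 29: HIST1H4H (now H4C8), an H4 gene, had 5.57, 5.76 and 5.69 at 72 h and 4.29, 4.80 and 4.42 at 24 h in DOX cells (1.17 ± 0.22). Their list median was -0.13 in DOX and -0.25 in MOCK cells.

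**Figure D4:**
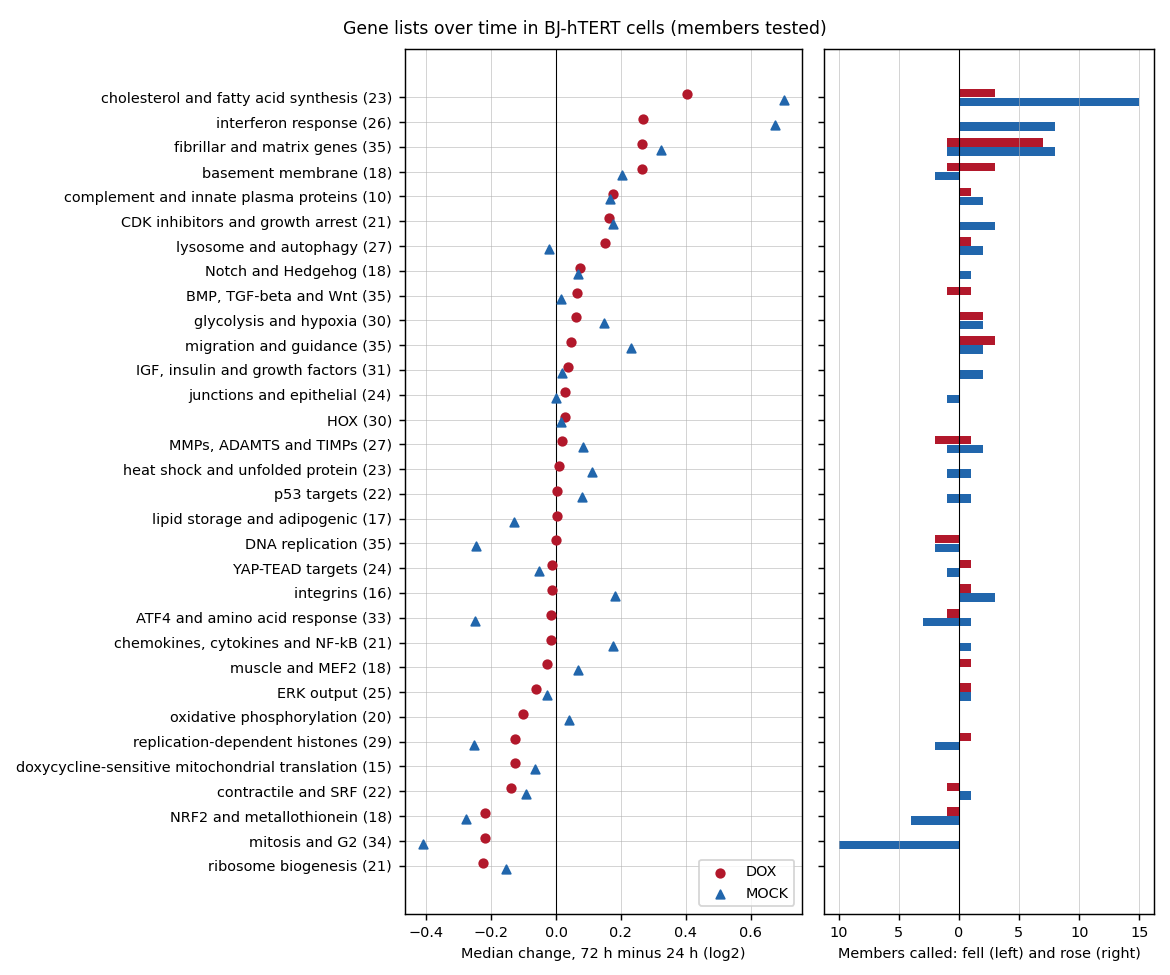
Left, median log2 change from 24 to 72 h of the tested members of each gene list in DOX (circles) and MOCK (triangles) BJ-hTERT cells, with the number tested in brackets. Right, members called, with falls drawn to the left and rises to the right of 0 (DOX bar above MOCK bar); sterol synthesis has 3 DOX and 15 MOCK rises, and matrix genes 7 and 8.

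Signalling and stress lists had few called members. TGFB2, a TGF-beta ligand, rose by 0.64 ± 0.14, and ID1, a BMP target that blocks differentiation factors, fell by 0.77 ± 0.17 among 35 BMP, TGF-beta and Wnt genes (median 0.06). SPRY1, a feedback inhibitor of ERK signalling, had 4.99, 5.09 and 4.76 at 72 h and 4.30, 4.44 and 4.23 at 24 h in DOX cells and was the 1 call among 25 ERK output genes (0.62 ± 0.14, median -0.06). MYOCD, the smooth muscle coactivator, rose by 0.65 ± 0.15 among 18 muscle genes (median -0.03), while ACTG2 fell among 22 contractile genes (median -0.14). The pentraxin gene PTX3 rose by 0.96 ± 0.22 among 10 complement and innate protein genes. Calls for MYOCD, ID1, SPRY1 and PTX3 were lost in 14, 10, 10 and 10 of 17 alternatives. P4HA1, a collagen prolyl hydroxylase counted in the glycolysis and hypoxia list, rose by 0.66 ± 0.11 and was with ALDOC 1 of the 2 calls among 30 (median 0.06). OSGIN1 fell by 0.94 ± 0.20 among 18 NRF2 and metallothionein genes (median -0.22), of which 4 fell in MOCK cells. The OSGIN1 call was lost in 9 of 17 alternatives.

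Lists in which limma called 0 members in DOX cells included CDK inhibitors and growth arrest genes (4 of 21 higher at an unadjusted p under 0.05, median 0.16) and p53 targets (1 of 22 higher and 1 lower, median 0.00). Over all 17329 genes tested, 1029 were higher and 1169 lower at that level in DOX cells. CDKN1A, the p21 cell cycle inhibitor, chosen after its values were seen, changed by 0.17 ± 0.24 (adjusted p = 0.84). Chemokine and NF-kB genes had 1 of 21 higher and 2 lower at that level, HOX genes 1 of 30 higher and 2 lower, and ribosome biogenesis genes 1 of 21 higher and 9 lower (median -0.22). CCL2, a monocyte chemokine, chosen after its values were seen, changed by -0.02 ± 0.23 in DOX cells and rose by 1.14 in MOCK cells. Genes of doxycycline-sensitive mitochondrial translation, which the drug can touch by itself, had 0 of 15 called and 1 lower at an unadjusted p under 0.05 (median -0.13). MRPL52, which fell, was not in that list. Oxidative phosphorylation genes had 0 of 20 called and 0 at an unadjusted p under 0.05. Of 33 ATF4 and amino acid genes 1 fell (SLC7A11, median -0.01), and of 27 lysosome and autophagy genes 1 rose (CTSO, median 0.15). The lysosomal protease gene LGMN, which rose, was not in the lysosome list. Cells without the construct were not part of the groups, so an effect of doxycycline itself and one of the fusion cannot be told apart.

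The same interval in HEK293 DOX cells gave 53 called genes, 0.306% of those tested, 30 higher (0.173%) and 23 lower (0.133%). ALDOC and LAMA1 were the 2 genes called over time in DOX cells of both lines, and the difference between lines called 36 genes (0.208%), 14 higher in BJ-hTERT (0.0808%) and 22 lower (0.127%). ALDOC rose in both, by 0.90 ± 0.17 in HEK293. LAMA1 fell by 0.80 in BJ-hTERT and rose by 0.64 ± 0.12 in HEK293 cells, which had 6.46, 6.57 and 6.61 at 72 h and 5.78, 5.97 and 5.97 at 24 h. The difference was -1.44 ± 0.17 (adjusted p = 0.00053) and was kept in all 22 alternatives. LGMN had 6.70, 6.92 and 6.78 at 72 h and 6.62, 6.58 and 6.92 at 24 h in HEK293 cells, overlapping, and its difference of 1.35 ± 0.22 was kept in the same alternatives, as was that of MMP1 (-1.46 ± 0.23). MMP1 lay below the filter on all HEK293 DOX arrays, so its line difference is that of a gene measured in BJ-hTERT cells.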

How the data were processed

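Total RNA was hybridised by the submitters to 24 arrays, and the deposited values are log2 intensities of 352859 probe sets. Per the submitters' processing notes they were made with GCOS, RMA and Affymetrix Expression Console; their versions, the build and the set of arrays normalised jointly: not given in the sources used here. Probe sets with 1 gene symbol (257971) were averaged per gene over 25029 genes, with a median of 8 probe sets, and 17329 genes were tested, those with a group mean at or over log2 2.83, the 40th percentile of all such means. The number of arrays limits precision. In limma 3.58.1 (R 4.3.3), 8 group means were fitted to all 24 arrays with eBayes, without a replicate block, and p-values were adjusted by Benjamini-Hochberg. The fit was tested on simulated data. Members, gene lists and tests were chosen with earlier results of these data known. Genes are named by rule. From DOX cells come 15 called rises and 15 called falls, by size, with the arrays of the times apart. Each list gives the 5 tested genes of lowest unadjusted p, and each difference (DOX minus MOCK, BJ-hTERT minus HEK293) the 10 largest calls a direction. Genes of small RNAs were skipped, as were those with symbols such as LOC, LINC, orf, KIAA or FAM plus a digit, whatever is known of their function. Alternatives covered the arrays fitted, probe set summary, filter, centring, quantile normalization, prior, array weights, replicate block and single left-out arrays. Promoters are RefSeq's, GRCh38.p14. Same-numbered arrays of the BJ-hTERT groups deviated together at r = -0.0177 to 0.086, and differently numbered ones at -0.047 to 0.0255. The labels do not say whether the numbers pair the samples, and these weak correlations do not settle it. No level of YWHAE is given, since 0 probe sets carry its symbol.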

Additional observations from a re-analysis of the deposited data

Results flagged for a closer look

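The change over time differed between DOX and MOCK cells for TRO, at -1.33 log2. Between BJ-hTERT and HEK293 DOX cells it differed, in the test of the difference, for 20 genes named by rule. Only 3 of these, LGMN, MMP1 and LAMA1, kept their call in every alternative. The call was lost in 17 of 22 alternatives for IGDCC3 and in 16 of 21 for GIMAP1-GIMAP5. For SEMA3D, EPB41L5 and SLC13A4 it was lost in 15 of 22. More positive in BJ-hTERT were CPA4 (1.89), HIST1H4H (1.62), SERPINI1 (1.61), SEMA3D (1.44), ITGA11 (1.37), LGMN (1.35), MXRA5 (1.27), EPB41L5 (1.08), VIT (1.05) and TSR2 (1.00). More negative were GIMAP1-GIMAP5 (-2.32), STC1 (-1.56), MMP1 (-1.46), LAMA1 (-1.44), LCP1 (-1.38), GDF5 (-1.37), SLC13A4 (-1.36), CPNE7 (-1.30), ABI3BP (-1.21) and IGDCC3 (-1.19). STC1, encoding the secreted hormone stanniocalcin 1, had a change of -0.52 in BJ-hTERT cells that missed the threshold and rose by 1.03 in HEK293 cells. CPNE7, GDF5 and IGDCC3 followed the same pattern, with changes of -0.44, -0.48 and -0.37 that missed the threshold in BJ-hTERT and rises of 0.86, 0.89 and 0.82 in HEK293. In HEK293 DOX cells, CPA4, ITGA11, MMP1, VIT and ABI3BP had both means below the filter. GIMAP1-GIMAP5 (2 probe sets) and SLC13A4 had a BJ-hTERT 72 h mean below it, GDF5 a HEK293 24 h mean below it and MXRA5 a HEK293 72 h mean below it, and these sizes are uncertain.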

How the results depend on the processing

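In the order DOX over time (143), MOCK over time (321), DOX minus MOCK (1), BJ-hTERT minus HEK293 (36) and HEK293 DOX over time (53), the counts of called genes moved as follows. With only the 12 BJ-hTERT arrays the first 3 were 52, 78 and 0. With only the arrays of each contrast, which leaves fewer arrays to estimate the spread, they were 4 for DOX, 0 for MOCK, 7 between lines and 0 for HEK293. The median of probe sets gave 57, 60, 2, 3 and 0. Brighter probe sets gave 4 for DOX minus MOCK. Without a filter DOX gave 93, DOX minus MOCK 0, the lines 21 and HEK293 30. Centring gave 0 for DOX minus MOCK and 101 for HEK293, and quantile normalization 0 for DOX minus MOCK. An intensity trend with a robust prior gave 244 for DOX, 4 for DOX minus MOCK, 65 between lines and 103 for HEK293. Array weights gave 57 between lines and 101 for HEK293. The replicate block gave 0 for DOX minus MOCK and 131 for DOX and changed no other count by over 1.5 times. Leaving out 1 array gave 60 to 108, 96 to 249, 0 to 3, 11 to 25 and 1 to 31. The DOX count was 92, 60 and 89 without DOX 72 h replicate 1, 2 and 3 and 68, 89 and 108 without DOX 24 h replicate 1, 2 and 3. The higher and lower calls split 29 to 14 between lines and 24 to 77 in HEK293 after centring, beside 14 to 22 and 30 to 23. Unless the number of arrays shows it, the cause was not tested. All 68 named genes called in DOX cells kept their direction in every alternative run, and 3 of them, CPA4, ITGA11 and LGMN, kept their call in each. NUTM2 probe sets called over time in DOX cells stayed at 0 in the settings run on probe sets. Background correction, slide and scan date could not be varied, since only processed values were used.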

Other observations

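Several genes outside the lists, chosen after their values were seen, rose in DOX cells. SOX4, a developmental transcription factor gene, rose by 1.02 ± 0.21 and MKX, a tendon transcription factor gene, by 1.08 ± 0.25. CSRP2, a LIM domain protein gene of smooth muscle, had 6.44, 6.37 and 5.99 at 72 h and 5.26, 5.67 and 4.84 at 24 h (1.01 ± 0.21). The neural adhesion genes L1CAM and CADM1 rose by 0.77 ± 0.15 and 0.73 ± 0.14, and GFRA1, a GDNF co-receptor gene, by 0.88 ± 0.18. In MOCK cells L1CAM and GFRA1 rose as well, by 0.71 and 0.79, while CADM1 changed by -0.03. RPL11, a ribosomal protein gene, fell by 0.53 ± 0.12 in DOX cells, beside a MOCK change of 0.33 that missed the threshold. The calls of MKX and RPL11 were lost in 11 and 12 of 17 alternatives.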
